A study of Mus musculus with 11 samples.

Results

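The genes described here make, store and release fat, and 41 of them were followed in the aorta of old mice with and without dietary nitrate. They were taken as every probe that the array files name after one of the 41 listed genes, and all 41 were found, on 58 of the 55681 probes other than control probes. Each gene had at least 1 detected probe. A probe counted as detected where 5 or more arrays of a group showed its spot as found and clearly brighter than background, which held for 56 of the 58 and for 23630 probes (transcripts) in all. The remaining probes, 1 of Lpin1 and 1 of Mgll, were not well above background on any array. Where a gene had several detected probes, the probe with the highest mean signal stands for it. It was well above background on all 11 arrays for each of the 41 genes.

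RNA came from the descending aorta of male C57BL/6 mice aged 20 months, 1 mouse per one-color Agilent array, which measures labeled RNA by its binding to short DNA probes. The old nitrate treated group (n = 5) had drunk water with 1 g/L sodium nitrate (NaNO3) over 8 weeks. The old control group (n = 6) carries the agent label control and is described as a re-analysis of earlier samples. The methods of the study name sodium chloride at the same concentration for controls, whereas the treatment text of the labels is the same for both groups and names nitrate only. The sixth nitrate treated mouse of the study is not analysed here. The dissection included removal of the fat around the vessel and of connective tissue. What was extracted was a whole piece of aorta, so fewer cells of a type and less RNA per cell cannot be told apart in any value below.

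Fat cells and, to a smaller degree, many other cells build fatty acids from citrate. Citrate leaves the mitochondrion and is split into acetyl-CoA, which carboxylases and the fatty acid synthase turn into saturated chains that elongases and desaturases then modify. Chains are joined to glycerol as triglyceride, kept in a lipid droplet coated by perilipins and released again by lipases, while lipoprotein lipase and its partners bring in fatty acids from blood. The receptor PPARγ (Pparg) and C/EBPα (Cebpa) drive fat cell formation, and SREBP-1 (Srebf1) and ChREBP (Mlxipl) switch on the synthesis enzymes in response to insulin and sugar. In the aorta, fat cells lie mainly in the perivascular fat around the adventitia.

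Expression was lower in nitrate treated mice in 40 of the 41 genes by mean log2 signal, against 46.2% of all detected transcripts. The exception was Plin4, with a log2 difference of 0.09. A transcript was called differentially expressed where limma's moderated test gave an unadjusted P value under 0.05 and the fold exceeded 1.2. By this rule 18 of the 41 genes (43.9%) fell and none rose, where 4.85% of all detected transcripts were called lower and 4.16% higher. At an unadjusted P value under 0.05 alone the count was also 18, against 14.4% of all transcripts. After Benjamini-Hochberg adjustment over the 23630 transcripts, 0 of the 41 passed 0.05 in limma's test, where 0.0127% of all transcripts did. The smallest adjusted P value of a member was 0.0938, for Cebpa, and in the exact permutation test over all divisions of the 11 mice 15 members had an unadjusted P value under 0.05, beside 14.7% of all transcripts. The median log2 difference of the 41 genes was -0.47, a fold of 0.724, beside 0.01 over all detected transcripts. These genes share the same 11 mice and are not independent of each other. In Gpihbp1, Pparg and Cebpa every nitrate treated mouse lay below every control, and such a gap in this direction was seen in 1.14% of all detected transcripts.

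Pairs of arrays correlated between 0.982 and 0.995, no spot was saturated, and by mean correlation control 1 was the array least like the rest. Without control 1 the number of members called lower was 15, where 3.54% of all detected transcripts were, and their median difference was -0.34. Control 6 lay below the mean of the nitrate treated group in 23 of the 41 members. Without it the number called was 30, beside 5.74% of all transcripts, and the median -0.52. The 12 members added were 7 synthesis genes with Agpat2, Lpin1, Fabp5, Cidec and Srebf1. The number of members without overlap was then 10, beside 2.09% of all transcripts. Without nitrate treated mouse 1 the number called was 11, beside 4.01%.

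**Figure D1:**
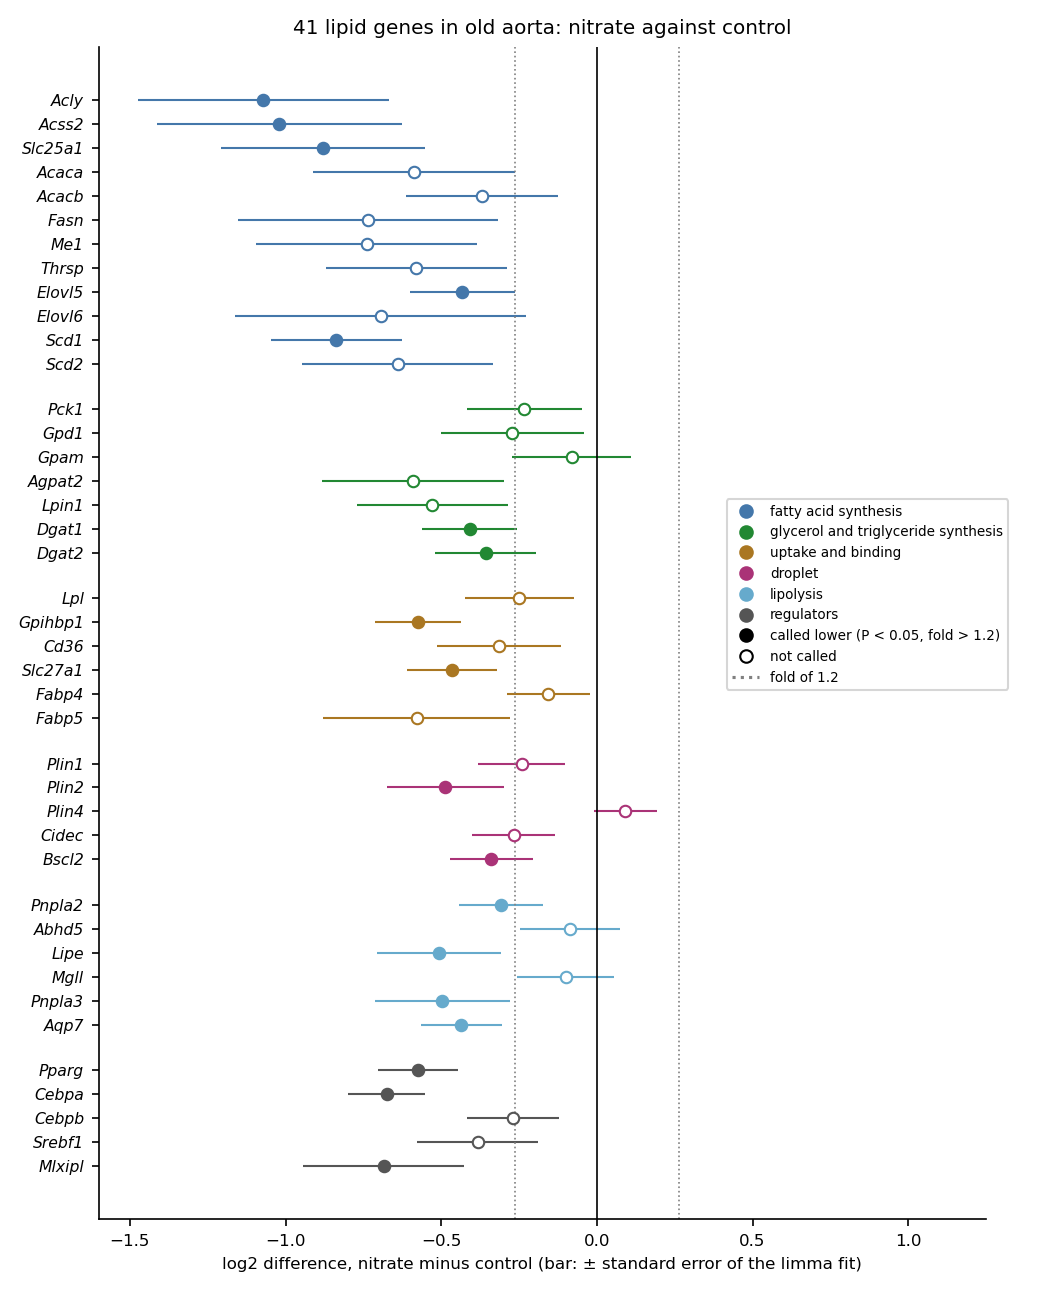
Log2 difference between old nitrate treated mice (n = 5) and old controls (n = 6) for each of the 41 genes, grouped by role, with bars of ± the standard error of the limma fit. Filled points were called lower, open points were not called, and the dotted lines mark a fold of 1.2. All points but Plin4 lie left of 0, and the fatty acid synthesis genes reach from -0.37 to -1.07.

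The plot of differences by role gives each gene, and the roles can be summarized by their medians. The 12 fatty acid synthesis genes had a median difference of -0.71, with 5 called lower. The 5 regulators had a median of -0.57 with 3 called, the 6 uptake and binding genes -0.39 with 2, the 6 lipolysis genes -0.37 with 4, the 7 genes of glycerol and triglyceride synthesis -0.36 with 2, and the 5 droplet genes -0.27 with 2. No test of these medians against each other was made. Of all detected transcripts 4.85% were called lower. Without control 1 the counts called, in the order given, were 5, 3, 2, 2, 2 and 1, beside 3.54% of all transcripts. Without control 6 they were 12, 4, 3, 4, 4 and 3, beside 5.74%.

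In the following, values are log2 normalized signals. Those of the nitrate treated group are given for mice 1 to 5 in this order, and those of the controls as the lowest, the median and the highest of 6. Signals of different probes are not comparable, so only differences are set side by side. Positions give where a probe lies in mm9, the build of the file headers, and which part of a transcript a probe covers was not analysed here.

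The synthesis of fatty acids begins with the supply of acetyl-CoA in the cytosol, and the 3 genes of this step, Acly, Acss2 and Slc25a1, had the largest differences of the 41 by the brightest probe and all 11 mice. Without control 1 the difference of Scd1 (-0.71) was larger than that of Slc25a1 (-0.64). Dimmer probes of Me1 (-0.94) and Pnpla3 (-1.52) also differed by more than Slc25a1 (-0.88) over all mice. Their promoters, with that of the fatty acid synthase Fasn, are shown as those of the entry to the pathway and of its central enzyme. Each is a window of 300 bases, 250 before and 50 after the transcription start that RefSeq lists first, in GRCm38.p6, printed 5′ to 3′ on the strand of the gene. Capitals mark 3 short motifs found on either strand, the E-box CACGTG, the inverted CCAAT box ATTGG and the GC box GGGCGG, which are the core letters bound by helix-loop-helix factors such as USF, by NF-Y and by Sp1. The windows lie at chr11:100527951-100528250 on the minus strand for Acly, chr2:155517793-155518092 on the plus strand for Acss2, chr16:17928170-17928469 on the minus strand for Slc25a1 and chr11:120824498-120824797 on the minus strand for Fasn.
Acly: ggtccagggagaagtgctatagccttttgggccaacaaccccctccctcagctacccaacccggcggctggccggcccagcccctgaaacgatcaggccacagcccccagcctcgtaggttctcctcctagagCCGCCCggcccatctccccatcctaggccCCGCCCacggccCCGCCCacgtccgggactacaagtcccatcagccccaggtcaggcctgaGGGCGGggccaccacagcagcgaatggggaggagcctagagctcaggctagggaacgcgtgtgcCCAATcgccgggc
Acss2: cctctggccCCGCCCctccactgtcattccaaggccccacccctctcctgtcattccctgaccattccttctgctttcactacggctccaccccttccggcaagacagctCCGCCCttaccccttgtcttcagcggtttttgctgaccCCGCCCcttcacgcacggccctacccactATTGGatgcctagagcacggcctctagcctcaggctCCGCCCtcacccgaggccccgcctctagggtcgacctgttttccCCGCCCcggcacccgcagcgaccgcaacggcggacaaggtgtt
Slc25a1: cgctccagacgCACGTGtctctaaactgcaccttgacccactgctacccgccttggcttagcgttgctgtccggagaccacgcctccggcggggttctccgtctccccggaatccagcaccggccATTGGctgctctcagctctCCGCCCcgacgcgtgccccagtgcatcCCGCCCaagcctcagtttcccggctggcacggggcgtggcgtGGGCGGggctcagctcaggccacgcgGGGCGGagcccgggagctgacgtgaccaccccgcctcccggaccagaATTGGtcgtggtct
Fasn: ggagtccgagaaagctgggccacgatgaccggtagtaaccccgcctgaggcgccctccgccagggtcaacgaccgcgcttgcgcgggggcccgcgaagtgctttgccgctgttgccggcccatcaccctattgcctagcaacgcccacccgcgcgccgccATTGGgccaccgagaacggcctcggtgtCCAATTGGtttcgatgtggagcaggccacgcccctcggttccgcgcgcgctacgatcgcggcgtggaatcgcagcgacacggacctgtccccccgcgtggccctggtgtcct

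Within these windows Acly held 4 GC boxes and 1 CCAAT box, and Acss2 held 5 GC boxes and 1 CCAAT box. Slc25a1 held an E-box, 2 CCAAT boxes and 4 GC boxes. Fasn held 3 CCAAT boxes, 2 of which overlap in opposite orientation, and neither of the other motifs. A RefSeq promoter was listed for 32 of the 41 genes, of which 14 were called lower. Those without an entry were Scd1, Scd2, Gpd1, Dgat1, Dgat2, Lpl, Gpihbp1, Fabp4 and Fabp5. The CCAAT box letters were found in 15 of the 32 promoters (46.9%) and in 37.9% of all 27025 promoters, and the GC box letters likewise in 15 of the 32 and in 35.9% of all. The E-box was present in 5 of the 32 (15.6%), namely Elovl5, Slc25a1, Plin2, Lipe and Mgll, and in 7.24% of all promoters. A sterol regulatory element core, TCACNCCAC, was matched in Mlxipl alone, where 1.22% of all promoters hold it. TTGCNNAA, letters of a C/EBP site, was matched in Gpam and Plin1, against 10.8% of all, and the PPAR response element in no member, against 0.0444%. All motifs were searched on both strands. A match is a description of letters and not a bound site.

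Acly, the ATP citrate lyase that splits cytosolic citrate into acetyl-CoA, had signals of 14.07, 13.74, 14.34, 13.67 and 13.78 in nitrate treated mice and of 13.71, 14.75 and 16.40 in controls (probe at chr11:100337674-100337733). The nitrate treated mice lay within a narrow band at the bottom of the controls, whose spread was wide, and the groups overlapped through control 6. Acly fell by 1.07 ± 0.40 (standard error) on the log2 scale, to 47.6% of the control signal (permutation P = 0.0411, limma adjusted P = 0.285). Its other probe, which is dimmer, was also called lower, at -1.14.

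Acss2, the acetyl-CoA synthetase that makes acetyl-CoA from acetate, had 11.45, 11.35, 11.87, 11.32 and 11.35 in nitrate treated mice and 11.31, 12.16 and 13.92 in controls (chr2:155388416-155388475). Nitrate treated mouse 3 stood apart above the other 4, and control 6 had the lowest signal of all 11 mice. The gene fell by 1.02 ± 0.39, to 49.3% of the control signal (permutation P = 0.0368, limma adjusted P = 0.292), and without control 3 it was no longer called, at -0.84. Slc25a1, the carrier that exports citrate from mitochondria, had 11.71, 11.53, 12.04, 11.44 and 11.57 in nitrate treated mice and 11.60, 12.25 and 13.76 in controls (chr16:17925661-17925720). The mice kept the order seen for Acly at both ends of the controls, with control 1 highest and control 6 lowest. Slc25a1 fell by 0.88 ± 0.33 on the log2 scale (permutation P = 0.0238, limma adjusted P = 0.284).

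The carboxylation and chain building enzymes had lower means without passing the test. Acaca, the acetyl-CoA carboxylase of the lipogenic pathway, had 13.93, 13.98, 14.35, 13.80 and 13.96 in nitrate treated mice and 13.51, 14.43 and 15.59 in controls. Fasn had 11.41, 11.27, 11.74, 10.96 and 11.22 in nitrate treated mice and 10.72, 11.79 and 13.66 in controls. In both genes control 6 had the lowest signal of the 11 mice and the nitrate treated mice lay between it and the other controls or among them. The differences were -0.59 ± 0.32 for Acaca (permutation P = 0.173) and -0.74 ± 0.42 for Fasn (permutation P = 0.175). Without control 1 they were -0.39 and -0.41, and without control 6 -0.80 and -1.003, at which both were called. A dimmer probe of Acaca was called lower, at -0.80.

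Acacb, the carboxylase at the outer membrane of mitochondria, differed by -0.37, Me1, the malic enzyme that provides NADPH, by -0.74, and Thrsp, a small protein of lipogenic tissues, by -0.58, and none of the 3 was called by its brightest probe. Other probes of Acacb (-0.56) and of Me1 (-0.80 and -0.94) were called lower. Elovl6, which elongates palmitate, differed by -0.69 ± 0.47 and the desaturase Scd2 by -0.64 ± 0.31. Neither was called. Without control 1 the differences of Acacb, Thrsp, Elovl6 and Scd2 were -0.19, -0.37, -0.38 and -0.41, and without control 6 they were -0.51, -0.78, -1.001 and -0.81, at which all 4 were called.

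Scd1, the desaturase that turns stearate into oleate, had 15.28, 14.94, 15.68, 15.29 and 15.14 in nitrate treated mice and 15.39, 16.12 and 16.76 in controls (chr19:44469387-44469446). Every nitrate treated mouse except mouse 3 lay below every control, and the 5 controls other than control 6 lay above all nitrate treated mice. Scd1 fell by 0.84 ± 0.21, to 56% of the control signal (permutation P = 0.0108, limma adjusted P = 0.157). Elovl5, an elongase of polyunsaturated chains, had 10.73, 10.53, 10.74, 10.54 and 10.44 in nitrate treated mice and 10.58, 10.91 and 11.67 in controls. Again the overlap came from control 6, and the gene fell by 0.43 ± 0.17 (permutation P = 0.0325, limma adjusted P = 0.295). It was not called without nitrate treated mouse 5 or without control 3.

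In the 12 synthesis genes the controls were also spread more widely than the nitrate treated mice. The SD of the controls was the larger in 12 of 12 genes, with a median of 0.80 against 0.27 in nitrate treated mice on the log2 scale. Control 6 had the lowest control signal in all 12, and it was below the mean of the nitrate treated group in 11 of them, while control 1 had the highest in 11. Controls 1 and 3 were above every nitrate treated mouse in 12 of 12. No test of the spreads was made. Without control 6 all 12 genes were called lower, with a median of -0.97, and without control 1 the count was 5 with a median of -0.41.

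**Figure D2:**
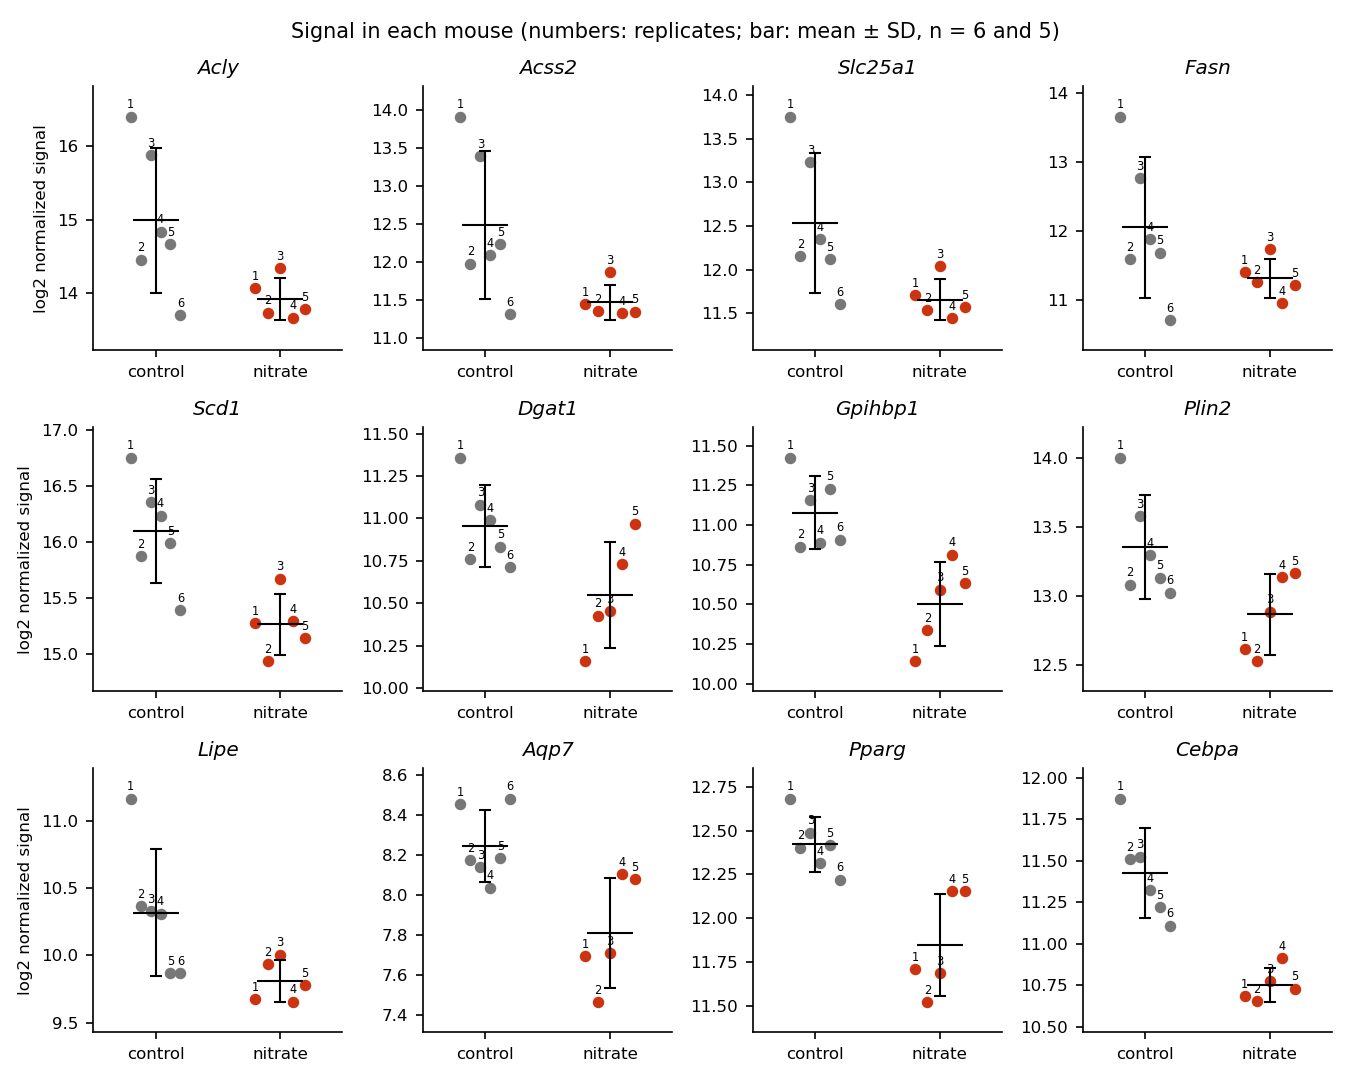
Log2 normalized signal of 12 genes in each mouse, with old controls (grey, n = 6) at the left and old nitrate treated mice (red, n = 5) at the right of each panel, each vertical axis scaled to its gene. Small numbers are the mice, and bars give the mean ± SD. In the synthesis genes of the upper row controls 1 and 3 stand high and control 6 low, whereas in Gpihbp1, Pparg and Cebpa the groups do not overlap.

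In triglyceride formation the early steps had no called gene. Pck1, an enzyme of glyceroneogenesis, differed by -0.23, Gpd1, which makes glycerol phosphate from a glycolysis intermediate, by -0.27, and Gpam, which adds the first acyl chain, by -0.08. Agpat2, the acyltransferase whose loss causes lipodystrophy, differed by -0.59 ± 0.29 and the phosphatase Lpin1 by -0.53 ± 0.24, and none of these 5 genes was called. Without control 1 the values of Gpd1, Agpat2 and Lpin1 were -0.09, -0.35 and -0.32, and without control 6 they were -0.38, -0.72 and -0.65, at which Agpat2 and Lpin1 were called. Pck1 went the other way and was called at -0.36 without control 1. The final step is catalyzed by Dgat1 and Dgat2, and both were called lower.

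Dgat1 had 10.16, 10.43, 10.45, 10.73 and 10.97 in nitrate treated mice and 10.71, 10.91 and 11.36 in controls (chr15:76333128-76333274). Mice 4 and 5 of the nitrate group overlapped the controls and the other 3 lay below all of them. Dgat1 fell by 0.41 ± 0.15 on the log2 scale (permutation P = 0.0368, limma adjusted P = 0.285), but not past the thresholds without nitrate treated mouse 1. Dgat2 had 14.97, 14.91, 15.14, 15.67 and 15.77 in nitrate treated mice and 15.34, 15.65 and 15.83 in controls (chr7:106302215-106302274). Here too mice 1 to 3 lay below all controls, and mice 4 and 5 lay within the control range. The limma call at -0.36 ± 0.16 went with an exact permutation P of 0.0801, and it was lost in 8 of the 11 fits that left out 1 mouse.

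Among the genes of uptake, the lipase itself and its membrane partner can be set side by side. Lpl, the lipoprotein lipase that frees fatty acids from circulating triglyceride, had 13.64, 14.15, 13.91, 14.42 and 14.70 in nitrate treated mice and 14.11, 14.44 and 14.69 in controls. The groups overlapped over most of their range, at a difference of -0.25 ± 0.18 (permutation P = 0.238). Gpihbp1, the protein that carries this lipase to the luminal face of capillary endothelium, had 10.14, 10.34, 10.59, 10.81 and 10.63 in nitrate treated mice and 10.86, 11.03 and 11.43 in controls (chr15:75428484-75428543). No nitrate treated mouse reached the lowest control. Gpihbp1 fell by 0.57 ± 0.14, to 67.2% of the control signal (permutation P = 0.00216, the smallest that all divisions of the mice allow, and limma adjusted P = 0.146).

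Slc27a1, a fatty acid transport protein, had 10.08, 10.20, 10.30, 10.27 and 10.34 in nitrate treated mice and 10.32, 10.63 and 11.21 in controls (chr8:74110256-74110315). The overlap was that of nitrate treated mouse 5 with control 2, the lowest control in this gene. Slc27a1 fell by 0.47 ± 0.14 (permutation P = 0.0130, limma adjusted P = 0.218).

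Cd36, the scavenger receptor that takes up long chain fatty acids, had 11.44, 11.39, 11.72, 12.32 and 12.21 in nitrate treated mice and 11.84, 12.05 and 12.63 in controls. Mice 1 to 3 lay below all controls and mice 4 and 5 among them, at a difference of -0.31 ± 0.20 (permutation P = 0.186). Leaving out 1 mouse gave Cd36 differences from -0.21 to -0.44, and it was called without nitrate treated mouse 4 and with slide as a block (-0.34). Fabp4, the fatty acid binding protein of fat cells, macrophages and capillary endothelium, had 16.66, 16.79, 16.87, 16.98 and 17.15 in nitrate treated mice and 16.76, 16.96 and 17.42 in controls. Its groups overlapped almost fully, with a difference of -0.16 ± 0.13 (permutation P = 0.305). Fabp5 differed by -0.58 ± 0.30 and was not called, and as in the synthesis genes controls 1 and 3 were the highest mice and control 6 the lowest control.

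At the lipid droplet, the coat protein of fat cells and that of other cells can be set side by side as differences. Plin1, the perilipin of fat cells, had 12.83, 12.89, 13.15, 13.58 and 13.38 in nitrate treated mice and 13.22, 13.40 and 13.67 in controls, a difference of -0.24 ± 0.14 (permutation P = 0.141). Plin2, the perilipin found on droplets of most cells, had 12.61, 12.53, 12.89, 13.14 and 13.17 in nitrate treated mice and 13.02, 13.21 and 14.01 in controls (chr4:86302847-86302906). In both genes nitrate treated mice 1 to 3 lay below every control and mice 4 and 5 did not. Plin2 fell by 0.49 ± 0.19 (permutation P = 0.0433, limma adjusted P = 0.291), a call that was lost without nitrate treated mouse 1 or without nitrate treated mouse 2.

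Bscl2, which encodes seipin and shapes nascent droplets, had 9.9998, 10.09, 10.12, 9.97 and 10.28 in nitrate treated mice and 10.14, 10.39 and 10.94 in controls (chr19:8920973-8921032). Of the nitrate treated mice, mouse 5 alone lay above the lowest control. Bscl2 fell by 0.34 ± 0.13 (permutation P = 0.0281, limma adjusted P = 0.297), and not past the thresholds in 4 of the 11 fits that left out 1 mouse. Cidec, which fuses small droplets into large ones, differed by -0.27 and was not called, although its dimmer probe was, at -0.38. Without 1 mouse the difference of Cidec lay between -0.17 and -0.34, and it was called without control 6 and without nitrate treated mouse 4 or 5. Plin4 differed by 0.09 ± 0.10, and control 1, highest in most other members, was the lowest mouse in this gene.

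Lipolysis releases fatty acids in steps, by Pnpla2, Lipe and Mgll in turn. Pnpla2, the adipose triglyceride lipase, had 13.96, 14.17, 14.19, 14.56 and 14.53 in nitrate treated mice and 14.30, 14.53 and 14.91 in controls (chr7:148645928-148645987). Mice 1 to 3 of the nitrate group lay below all controls, and mice 4 and 5 lay among them. The call at -0.31 ± 0.13 went with an exact permutation P of 0.0584 and held in 5 of the 11 fits without 1 mouse. Abhd5, the activator of this lipase, differed by -0.09 ± 0.16.

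Lipe, the hormone-sensitive lipase, had 9.67, 9.93, 10.01, 9.66 and 9.78 in nitrate treated mice and 9.87, 10.32 and 11.16 in controls (chr7:26165828-26165887). Controls 5 and 6 lay within the nitrate treated range and control 1 well above all other mice. Lipe fell by 0.51 ± 0.20, to 70.3% of the control signal (permutation P = 0.0303, limma adjusted P = 0.298), and this call was lost without nitrate treated mouse 1 or without nitrate treated mouse 4. Mgll, the monoglyceride lipase, differed by -0.10 ± 0.15.

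Pnpla3, a lipase-like protein of liver and fat, had 9.17, 8.97, 9.71, 9.52 and 9.35 in nitrate treated mice and 9.37, 9.77 and 10.71 in controls (chr15:84016440-84016499). The groups overlapped in nitrate treated mice 3 and 4, and control 1 stood highest. The difference was -0.50 ± 0.22 (permutation P = 0.0606), it was -0.32 and no longer called without control 1, and the call held in 5 of the 11 fits without 1 mouse. A dimmer probe of Pnpla3 was called lower at -1.52. Aqp7, the channel through which fat cells release glycerol, had 7.69, 7.47, 7.71, 8.10 and 8.08 in nitrate treated mice and 8.04, 8.18 and 8.48 in controls (chr4:40980431-40980490). Mice 1 to 3 of the nitrate group lay below every control, and mice 4 and 5 above the lowest control only. Aqp7 fell by 0.44 ± 0.13 (permutation P = 0.0108, limma adjusted P = 0.206). In this gene control 6, the lowest control in the synthesis genes, had the highest signal.

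The regulators Cebpa and Pparg had the smallest P values of the members in limma's test, and in the permutation test Gpihbp1 shared the smallest value with Pparg. Cebpa, the factor of late fat cell differentiation, had 10.68, 10.65, 10.77, 10.91 and 10.73 in nitrate treated mice and 11.11, 11.42 and 11.87 in controls (chr7:35906517-35906576). The nitrate treated mice were close to each other, and the highest of them lay below the lowest control. Cebpa fell by 0.68 ± 0.12, to 62.6% of the control signal (permutation P = 0.00433, limma adjusted P = 0.0938).

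Pparg had 11.71, 11.53, 11.69, 12.16 and 12.15 in nitrate treated mice and 12.22, 12.41 and 12.68 in controls, each a mean of up to 10 spots (chr6:115440213-115440272). The groups did not overlap, and mice 4 and 5 of the nitrate group came close to control 6. Pparg fell by 0.57 ± 0.13, to 67.2% of the control signal (permutation P = 0.00216, limma adjusted P = 0.130).

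Mlxipl, which encodes the sugar-responsive factor ChREBP, had 9.97, 9.80, 10.23, 10.47 and 10.44 in nitrate treated mice and 10.11, 10.73 and 11.81 in controls (chr5:135613705-135613764). Its overlap was again through control 6, which lay among nitrate treated mice. Mlxipl fell by 0.69 ± 0.26 (permutation P = 0.0390, limma adjusted P = 0.285), and it was not called without nitrate treated mouse 2. Srebf1, which encodes SREBP-1, had 8.52, 8.42, 8.61, 8.71 and 8.45 in nitrate treated mice and 8.44, 8.80 and 9.72 in controls. Controls 5 and 6 lay within the nitrate treated range, and the difference of -0.38 ± 0.19 was not called (permutation P = 0.0952). Cebpb, a factor of early fat cell differentiation, differed by -0.27 ± 0.15.

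**Figure D3:**
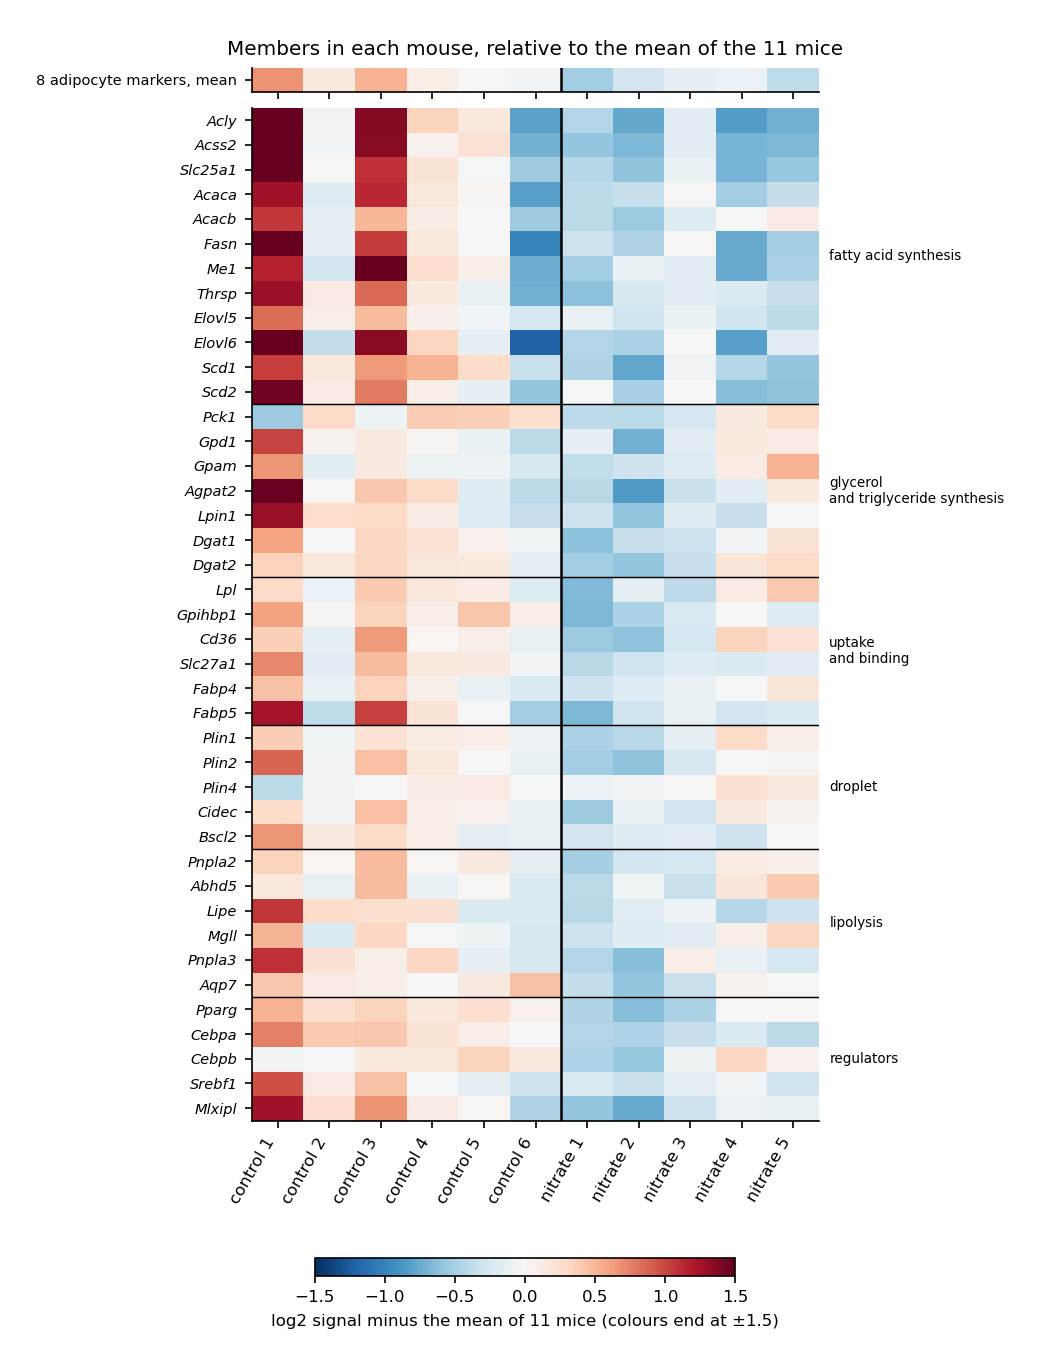
Log2 signal of the 41 genes (rows, by role) in each of the 11 mice (columns, controls left of the line), each gene relative to its mean over the mice, with red above and blue below the mean. The strip on top is the mean of 8 adipocyte markers on the same scale, from -0.04 to 0.67 in controls and from -0.52 to -0.09 in nitrate treated mice. Columns of controls 1 and 3 are red in most rows, and that of control 6 is blue in the synthesis genes.

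The map of all members by mouse shows which animals were high or low in the 18 called genes. Control 1 had the highest signal of the 11 mice in 16 of the 18 and was among the highest 3 in all 18, and control 3 was among the highest 3 in 16. Control 6 had a median rank of 8 among the 11 mice, where 1 is the highest, the same as nitrate treated mice 3 and 5. Nitrate treated mouse 2 had the lowest signal in 8 of the 18, and nitrate treated mice 1 and 4 in 4 each. The 8 genes called in each of the 11 fits without 1 mouse were Acly, Slc25a1, Scd1, Gpihbp1, Slc27a1, Aqp7, Pparg and Cebpa. Of the 23 genes not called over all mice, 17 were called in 1 or more of these fits, and the other 6 were Gpd1, Gpam, Fabp4, Plin4, Abhd5 and Mgll. Leaving out 1 mouse moved the difference by over 1.5 times in 22 of the 23, all but Me1. Such counts over the fits were not taken for all transcripts, so they describe these members only.

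The 11 arrays lay on 3 slides, each with both groups, and the differences were taken within each. On slide 1 (nitrate treated mice 1 and 2, controls 1 and 2) 40 of the 41 members were lower in nitrate treated mice, with a median of -0.90, where 44.2% of all transcripts were lower. On slide 2 (nitrate treated mouse 3, controls 4 and 6) 27 were lower, with a median of -0.08, where 48.9% of all transcripts were lower. On slide 3 (nitrate treated mice 4 and 5, controls 3 and 5) 32 were lower, with a median of -0.23, beside 45.9%. Of the 41 genes 19 were lower on all 3 slides, beside 16.1% of all transcripts, among them 13 of the 18 called genes.

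The synthesis genes did not keep their direction within slides. They had medians of -1.17 on slide 1 and -1.07 on slide 3, but 0.11 on slide 2, where 2 of the 12 were lower, Fasn differed by 0.43 and Acly by 0.07. Cebpa kept its direction, at -1.02, -0.44 and -0.55 on slides 1, 2 and 3, as did Pparg at -0.92, -0.58 and -0.30, Gpihbp1 at -0.90, -0.31 and -0.47, and Scd1 at -1.21, -0.14 and -0.96. With slide as a block in the fit 20 members were called lower, beside 5.39% of all transcripts. In this fit Pnpla3 was no longer called, while Cd36, Cidec and Lpin1 were. Column 3 of the slides held all 6 controls and none of the nitrate treated mice, so the effect of the column and that of the treatment cannot be told apart.

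**Figure D4:**
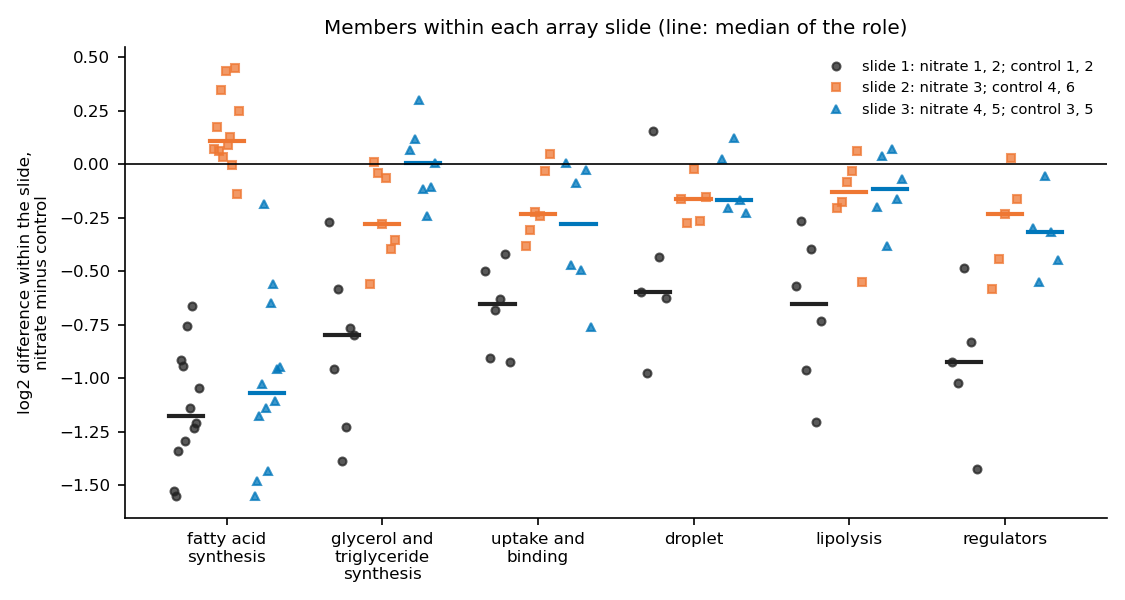
Log2 difference between nitrate treated mice and controls within each of the 3 slides, 1 point per gene, by role, with the median of the role as a line. Each difference rests on 1 or 2 mice per group, and no test was made. The synthesis genes lie far below 0 on slides 1 and 3 and around 0.11 on slide 2, which holds control 6. The only nitrate treated mouse of slide 2, mouse 3, was the highest of its group in 10 of these 12 genes.

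Markers of fat cells outside the members were lower too, but not all fat cell genes among the members were called. Plin1 (-0.24) and Fabp4 (-0.16) were not, whereas Aqp7 (-0.44), Pparg (-0.57) and Cebpa (-0.68) were. Of 8 adipocyte markers that are not members (Adipoq, Lep, Retn, Cfd, Adig, Tusc5, Lgals12 and Acvr1c), all 8 were detected. Lower means in nitrate treated mice were found in 8, beside 46.2% of all detected transcripts. Of the markers 6 were called lower, beside 4.85% of all transcripts, and 4 had no overlap between the groups, beside 1.14%. The mean log2 signal of the 8 markers relative to all mice ranged from -0.52 to -0.09 in nitrate treated mice. In controls it ranged from -0.04 to 0.67. The groups differed by -0.51 in this mean, with control 1 highest at 0.67 and control 3 next at 0.52. Adipoq, the fat cell hormone adiponectin, fell by 0.49 (permutation P = 0.00216), and Retn, resistin, by 0.84 (permutation P = 0.00433). None of the 8 was at background.

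In mean log2 signal of the 8 adipocyte markers control 6 was the lowest control, at -0.04 beside -0.09 in nitrate treated mouse 4. With the mean of the adipocyte markers as a covariate 2 members were called lower, beside 2.95% of all transcripts, namely Cebpa (-0.29) and Pck1 (-0.63), and Thrsp was called higher at 0.46, and the median of the 41 genes was 0.15. Over the 11 arrays this covariate correlated with the treatment at -0.752. The part of fat cell content in the differences was not tested.

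The other cell types of the vessel were measured by lists of the same kind. Of 8 brown adipocyte markers 5 had lower means in nitrate treated mice and 1 was called lower (Cidea, -0.52), and Ucp1 differed by 0.23. The mean log2 signal of these markers relative to all mice was between -0.65 and -0.19 in nitrate treated mice 1 to 3, and 0.33 and 0.50 in nitrate treated mice 4 and 5. It was 0.87 in control 1 and between -0.22 and 0.05 in the other controls. Nitrate treated mice 4 and 5 are also those that lay within the range of the controls in Dgat1, Dgat2, Cd36, Plin1, Plin2, Pnpla2 and Aqp7, and the part of brown fat cells in these values was not tested. Mice 4 and 5 were also the only nitrate treated mice on slide 3, in columns 1 and 2. Nitrate treated mice 1 to 3 lay in column 4 of slides 1 and 2. Slide and column therefore cannot be told apart from other differences between these mice. Smooth muscle, the main cell of the medial layer, had all 6 markers at higher means in nitrate treated mice with 1 called (Lmod1, 0.31), and the groups did not overlap in Smtn (0.26, permutation P = 0.00433). Their mean log2 signal was -0.43 in control 1, between -0.02 and 0.01 in the other controls and between -0.03 and 0.22 in nitrate treated mice. None of the 6 endothelial, 5 fibroblast, 6 macrophage, 4 heart muscle and 2 detected skeletal muscle markers was called, although at unadjusted limma P values under 0.05 the fibroblast markers Lum (0.23) and Pi16 (0.25) and the endothelial Vwf (0.22) were higher by less than the fold of 1.2. The means were higher in nitrate treated mice in all of these but 3 endothelial markers, with medians of 0.21 for fibroblasts, 0.13 for macrophages and 0.93 for heart muscle. The heart muscle markers were far above the other mice in control 1 and nitrate treated mouse 4, at 2.86 and 3.37 in mean log2 signal relative to all mice, and between -1.88 and 1.07 in the others. Their part in the values of control 1 was not tested. The defining markers of smooth muscle and endothelium were all detected.

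Further genes of each pathway show how far the pattern reached. Of 26 further detected synthesis genes 6 were called lower and 0 higher. They were Scd3 (-1.14), a desaturase like Scd1, Slc25a10 (-0.80), the dicarboxylate carrier, Pcx (-0.76), the pyruvate carboxylase, Tkt (-0.53), the transketolase of the pentose phosphate pathway, Tecr (-0.47) and Ptplb (-0.35), which complete the elongation cycle. Of 12 further triglyceride genes 0 were called lower and Lpin3, a lipin, was higher at 0.55 without overlap between the groups. Its relative Lpin1 differed by -0.53.

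Of 12 further uptake genes 2 were called lower, Angptl4 (-0.53), an inhibitor of the lipoprotein lipase, and Pltp (-0.36), the phospholipid transfer protein. Of 10 further droplet genes Cidea was called. Of 13 further lipolysis genes 4 were called lower, and each acts on the signal that starts lipolysis. Adrb3 (-0.80), the adrenergic receptor of fat cells, had no overlap between the groups, and Niacr1 (-0.57), Adora1 (-0.52) and Pde3b (-0.49) encode brakes on it. Of 29 further regulators 5 were called lower and 0 higher, namely Insig1 (-0.84), which holds back SREBP, Ebf2 (-0.54), a factor of fat cell precursors, Ppara (-0.45), Rxra (-0.34), the partner of PPARγ, and Ppargc1b (-0.27). The median difference of each further list lay between -0.21 and -0.02, closer to 0 than that of any role of the members. Each of these calls rests on the unadjusted P value, and the share of all transcripts called lower is the 4.85% given above.

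The clock genes, which set daily rhythms of lipid synthesis among other processes, moved in both directions. Of 13 detected, 3 were called lower and 7 higher, beside 4.85% and 4.16% of all transcripts. Arntl differed by -1.24 and Dbp by 1.22. The time of day of sampling is not given in the sources used here, and the part of the clock in the differences of the lipid genes was not tested.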

How the data were processed

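Total RNA of 11 aortas was hybridized to one-color 8x60K mouse arrays and scanned by the authors. They deposited spot intensities from Feature Extraction 10.7.1.1, corrected for background within each array only, and a table of log2 values that they quantile normalized and centered on the median of all samples.

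Here the processed signal, with a floor of 1, was log2 transformed. Control spots and spots with an outlier flag (at most 186 of 59305 per array) were left out, spots of a probe were averaged and arrays were quantile normalized. Before normalization the arrays had a 75th percentile of signal from 212.8 to 288.7, and the number of arrays limits the precision. Groups were compared with limma 3.58.1 (lmFit and eBayes, Benjamini-Hochberg adjustment) in R 4.3.3 over all detected probes, with the thresholds of the study's methods. Single genes also had two-sided exact permutation tests of the difference of means. No list was tested. Each array is a separate mouse.

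The 41 members and all lists were chosen with earlier results of these data known. The values of each nitrate treated mouse and the range and median of the controls are given for members that were called or without overlap and for 12 defining genes of their roles, and from the further lists the called genes are named. Under the names Hilpda and Ces1d, 2 genes of those lists, no probe was found. Gene names are those of the files, and promoters are from RefSeq, GRCm38.p6. The scripts were tested on simulated data with known changes. Alternatives covered scaling to the 75th percentile, normexp background correction (offset 50), the table of log2 values as deposited, other detection rules, keeping outlier-flagged spots, slide and replicate number as blocks, an adipocyte covariate, the choice of probe, and each array left out in turn.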

Additional observations from a re-analysis of the deposited data

Results flagged for a closer look

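A single mouse lay far from the rest of its group in 2 of 82 groups (41 genes in both groups), where chance gives about 1 in 20, or 4.1. For Acss2 it was nitrate treated mouse 3, whose gap to its neighbor above the others took a share of 0.772 of the range of the nitrate treated mice. For Plin4 it was control 1, the lowest of the controls, with a share of 0.702.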

How the results depend on the processing

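The number of members called lower was between 15 and 21 under 75th percentile scaling, normexp background correction, the deposited log2 table, both other detection rules, flagged spots kept, slide as a block and the mean of all detected probes of a gene, against 18, with none called higher, while the share of all transcripts called lower lay between 2.71% and 5.39%, against 4.85%. Normexp gave 21 members beside 3.31%, and no detection filter 15 beside 2.71%. Over all transcripts the count of 2127 fell to 1217 with normexp, where 35.8% of calls were higher against 46.2%, and rose to 3224 without a detection filter. Leaving out 1 mouse at a time gave 1595 to 2423 transcripts, 11 to 30 members called lower (3.51% to 5.74% of all transcripts), 3 to 10 members without overlap (1.33% to 2.14% of all transcripts) and medians from -0.52 to -0.34.

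With the adipocyte marker mean as a covariate, 2 members were called lower and 1 higher, and the median turned to 0.15. Of single members, 31 reversed under this covariate, and the cause was not tested beyond the correlation of the covariate with the treatment. In order of role the values were Acly 0.19, Acss2 0.30, Slc25a1 0.19, Acaca 0.45, Acacb 0.38, Fasn 0.57, Me1 0.30, Thrsp 0.46, Elovl5 0.087, Elovl6 0.73, Scd2 0.26, Gpd1 0.31, Gpam 0.35, Agpat2 0.22, Lpin1 0.16, Lpl 0.054, Cd36 0.15, Fabp4 0.23, Fabp5 0.44, Plin1 0.083, Plin2 0.078, Plin4 -0.054, Cidec 0.067, Bscl2 0.025, Pnpla2 0.037, Abhd5 0.21, Lipe 0.077, Mgll 0.32, Pnpla3 0.13, Srebf1 0.28 and Mlxipl 0.16. With 1 mouse left out, Abhd5 ranged from -0.20 to 0.0045 and reversed without nitrate treated mouse 1 or without control 3 (0.0016), and Gpam ranged from -0.22 to 0.043 and reversed without control 1, with neither called. Over 860 combinations of a member with an alternative, 733 kept direction and side of the thresholds, 45 lost and 48 gained a call, and 34 reversed. The call of Cebpa was kept in all 21 alternatives.

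The replicate numbers of the labels did not pair the samples, since deviations of same-numbered mice correlated between -0.136 and 0.18. With the replicate block 29 members were called lower, beside 5.63% of all transcripts, at a median of -0.52. Control 6 has no partner in this fit and adds nothing to the differences. They were those of the fit without control 6 (Acly -1.33 in both), in which 30 members were called.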
